A study of Mus musculus with 40 samples.

Results

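The endoplasmic reticulum (ER) chaperone and unfolded protein response module is a list of 37 mouse genes that sense, fold, oxidise, import and degrade proteins of the secretory pathway. A member's value came from a probe set annotated to that gene alone, under its current symbol or an older alias, and where several existed from the one brightest on average on that platform. All 37 were measured in both experiments of the series, among 18193 genes in the sorted T cell experiment and 17097 genes in the ligand experiment. The cells were mouse CD4 T cells of the C57Bl/6 strain. Regulatory T cells (Treg) restrain immune responses and depend on the transcription factor Foxp3, whereas conventional T cells (Tconv) lack it.

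The sorted T cell experiment held 3 activated Treg arrays, 3 resting Treg arrays and 2 arrays of unstimulated (resting) Tconv, all from mice with a Foxp3-GFP reporter and with bone marrow as the labelled source. Treg were CD4+, CD45RB low and GFP+, and Tconv were CD4+, CD45RB high and GFP-. Per the labels' protocols the cells were kept in culture for 48 h, with antibodies to CD3 and CD28 for activated Treg and without stimulation for both resting groups. Both Treg groups therefore differed from Tconv in CD45RB level as well as in lineage, and these cannot be told apart here. No array of stimulated Tconv was analysed, so activated Treg differed from resting Tconv in stimulation too.

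The ligand experiment held 32 arrays of Treg from spleen and peripheral lymph nodes, in 8 pairs for each of 2 genotypes. NRP KO Treg came from mice with a floxed neuropilin-1 (Nrp1) gene and a Foxp3-driven YFP-iCre, which acts in Foxp3-expressing cells. WT Treg came from mice with the same Foxp3-driven YFP-iCre and no floxed allele named in the title, so both genotypes carried the Cre. Every culture received plate-bound antibody to CD3 at 1 µg/mL, soluble antibody to CD28 at 2 µg/mL and human IL-2 at 100 U/mL. In each pair, 1 array came from Treg on immobilised Sema4a-Ig, a fusion of the Nrp1 ligand semaphorin-4a with an immunoglobulin tail, and 1 from Treg on mouse IgG1, both at 10 µg/mL. WT Sema4a-Ig replicate 2 was grouped by its title, although its genotype label names the floxed allele. The labels do not say that replicates were separate animals or cultures, so a p-value here reflects array-to-array spread, part of which may be technical.

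Secretory and membrane proteins enter the ER through the Sec61 channel, fold there with the help of chaperones and disulfide enzymes, and are returned to the cytosol for degradation when they fail to fold. Unfolded proteins are sensed by IRE1 (gene Ern1), which splices Xbp1 mRNA into the form that encodes an active transcription factor, by ATF6, which is cut from the ER membrane to become one, and by PERK. Together these raise the chaperones and degradation factors on this list, and in lymphocytes the response is best known for plasma cells, which depend on XBP1 to secrete antibody.

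The best known DNA site of this response is the ER stress element, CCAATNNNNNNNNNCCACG, to which NF-Y and ATF6 bind. It was searched on both strands of RefSeq promoters (assembly GRCm38.p6, 250 bases before to 50 after each gene's start), which were found for 31 of the 37 members. The element was present in the promoters of 10 of these 31 members (32.3%) and of 37 of 27025 genes in all (0.137%). A shorter variant, ER stress element II, ATTGGNCCACG, was present in 2 of 31 members and in 12 of 27025 genes (0.044%). The motifs can overlap in their CCAAT box, but no member held both. The core TGACGTGG, which XBP1 and ATF6 can bind, was found in 0 of 31 members and in 193 genes (0.714%), which says only that these letters are not in this window. A match describes the letters and not a bound site. No promoter was found for Atf6, Derl1, Hyou1, Manf, Sec11c and Sec61a1.

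The 13 matches are printed with 9 bases on each side, because they are the sequence that these members share. Each is turned so that the motif, in capitals, reads as spelled above, and the strand is the one printed. Hspa5 encodes BiP, the main ER chaperone of the HSP70 family, and Hsp90b1 encodes GRP94, the ER form of HSP90, which holds 2 matches. The Hspa5 window lies at chr2:34772016-34772052 (+), and those of Hsp90b1 at chr10:86705524-86705560 (+) and chr10:86705629-86705665 (-).
Hspa5: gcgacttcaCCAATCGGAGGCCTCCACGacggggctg
Hsp90b1, first: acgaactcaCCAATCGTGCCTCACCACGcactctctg
Hsp90b1, second: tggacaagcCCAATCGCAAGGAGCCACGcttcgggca
The lectin chaperones calreticulin (Calr, chr8:84847066-84847102, +) and calnexin (Canx, chr11:50325791-50325827, -), which bind newly made glycoproteins, follow.
Calr: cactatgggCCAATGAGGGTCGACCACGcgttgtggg
Canx: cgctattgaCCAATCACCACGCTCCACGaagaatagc
The co-chaperones and disulfide enzymes with the element are Creld2 (chr15:88819511-88819547, -), Dnajc3 (chr14:118937818-118937854, +), Ero1b (chr13:12565673-12565709, -) and Pdia6 (chr12:17266482-17266518, +).
Creld2: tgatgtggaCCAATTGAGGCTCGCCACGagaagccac
Dnajc3: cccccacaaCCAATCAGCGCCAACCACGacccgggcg
Ero1b: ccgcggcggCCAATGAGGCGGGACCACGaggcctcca
Pdia6: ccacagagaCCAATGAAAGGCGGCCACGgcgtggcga
Of the ER-associated degradation genes, Derl3 (chr10:75893233-75893269, -) and the ubiquitin ligase gene Syvn1 (chr19:6046523-6046559, +) hold the element.
Derl3: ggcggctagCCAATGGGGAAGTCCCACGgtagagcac
Syvn1: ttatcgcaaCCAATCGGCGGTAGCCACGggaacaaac
ER stress element II is in Dnajb11 (chr16:22857843-22857871, +), a BiP co-chaperone, and in Herpud1 (chr8:94386368-94386396, +), which helps assemble the degradation machinery.
Dnajb11: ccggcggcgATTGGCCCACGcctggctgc
Herpud1: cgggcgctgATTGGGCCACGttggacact
The matches began 44 to 212 bases before the gene start, apart from the Dnajb11 match, which began 7 bases after it. Of the 13 matches, 8 read in the direction of the gene and 5 in the other.

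All differences below are log2 differences of array signal, with their standard errors. A member passed the test when its limma p, adjusted by Benjamini-Hochberg for every gene measured in that experiment, was under 0.05. In bulk samples, fewer cells of a type and less RNA per cell cannot be told apart. The labelled cell types were checked first: Foxp3 lay between 10.74 and 10.91 in activated Treg, between 10.33 and 10.60 in resting Treg and between 3.95 and 4.05 in resting Tconv. The sorted arrays differed in RNA quality. The Actb 3′ minus 5′ signal, which grows as RNA is degraded or shortened in labelling, was 5.87 and 6.17 in activated Treg 1 and 2 and 5.90 in resting Treg 1, against 2.31 in activated Treg 3, 2.51 and 2.67 in resting Treg 2 and 3, and 1.24 and 1.54 in Tconv. Of the 37 members, 12 (32.4%, against 14.3% of all genes) were lower in each of the 3 Treg arrays with a high Actb value than in each of the 3 with a low one, and 2 (5.41%, against 14.4%) were higher. The 12 were the chaperone and folding genes Hspa5, Hsp90b1, Manf, Creld2, Canx, Pdia3, Pdia6, P4hb and Ero1a, the degradation genes Herpud1 and Edem2, and the channel gene Sec61b. The part of RNA quality in the comparisons below was not tested beyond the fits with the Actb class as a block and those of the arrays with a low Actb value alone.

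**Figure D1:**
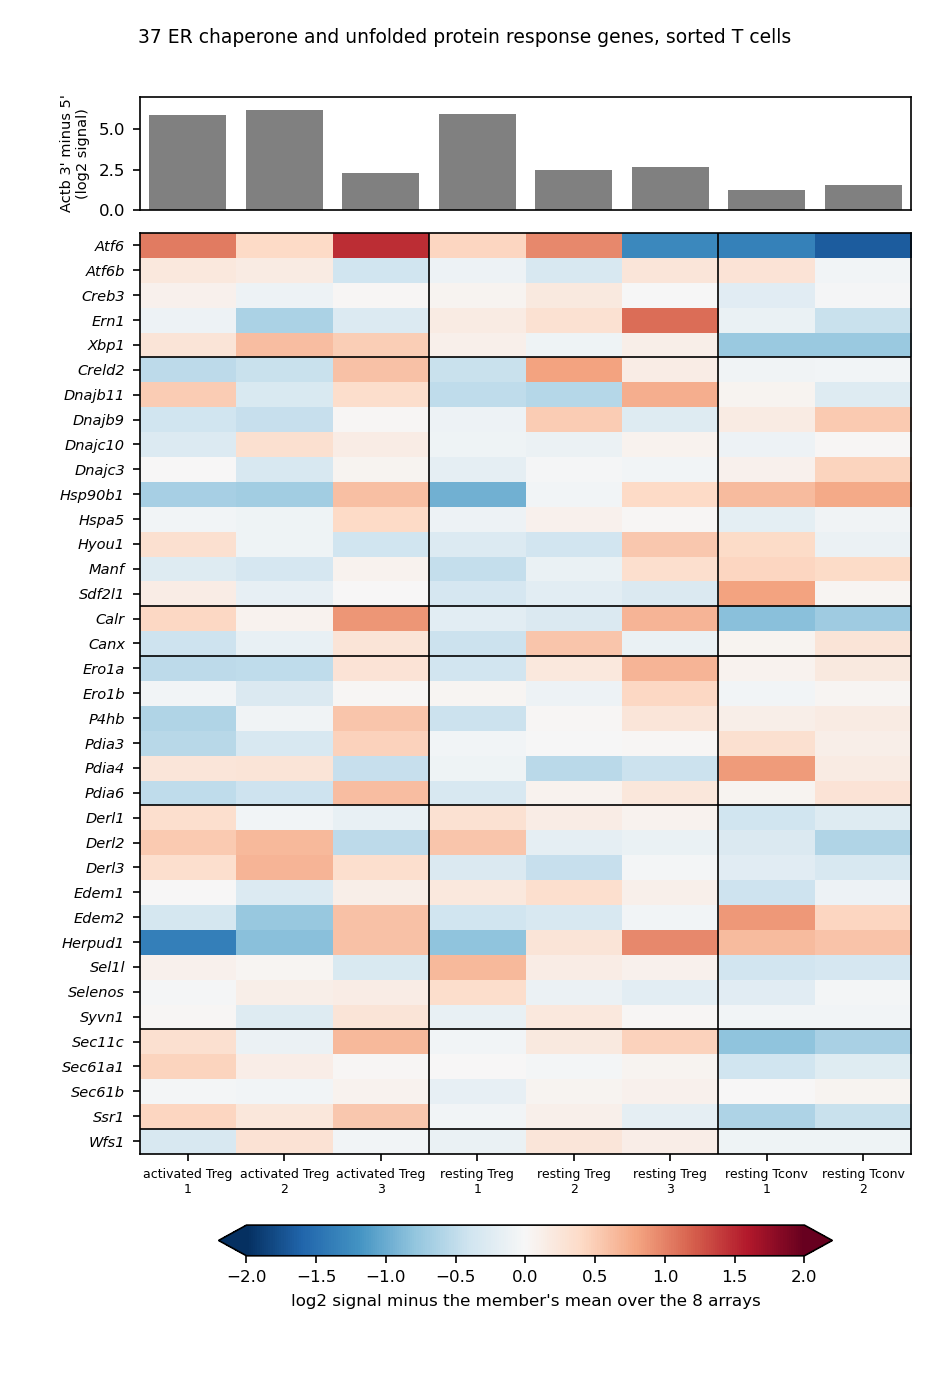
Signal of the 37 members in each of the 8 sorted T cell arrays, as the log2 signal minus the member's mean over the 8 arrays (colour), with members grouped by role. The bars give the Actb 3′ minus 5′ signal of each array on the log2 scale, and Hsp90b1 and Herpud1 are lowest in Treg arrays with a bar above 4.

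Activated and resting Treg were compared to ask what stimulation through CD3 and CD28 changed. No ER chaperone or unfolded protein response gene passed the test between activated and resting Treg (0 of 37, against 0.742% of all genes). Without adjustment, 4 of 37 members (10.8%) had a p under 0.05, against 11.5% of all genes, and 6 of 37 (16.2%) had no overlap between the groups, against 13.0%. Of these 6, Derl3, Sdf2l1, Ssr1 and Xbp1 were higher in activated Treg and Ern1 and Sel1l lower, where 6.03% and 6.94% of all genes lay apart in those directions. The median difference of the members was -0.00 and that of all genes was 0.00, with 18 members above 0 and 19 below (12 below with quantile scaling and 10 with 75th percentile centring). With 75th percentile centring both medians were 0.11, a shift shared by all genes, and with quantile scaling they were 0.09 for members and -0.01 for all genes. The median half-width of the members' 95% intervals was 0.52, so smaller changes in single members could not be resolved with these arrays.

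Among the sensors, Ern1 had log2 signals of 7.58, 7.05 and 7.41 in activated Treg, against 7.85, 7.99 and 8.80 in resting Treg. The groups did not overlap, with every activated array below every resting one, and the difference of -0.86 ± 0.27 did not pass (adjusted p = 0.235). Xbp1 had signals of 11.47, 11.82 and 11.69 in activated Treg and 11.31, 11.12 and 11.32 in resting Treg. These groups did not overlap either, with the activated arrays on top (0.41 ± 0.15, adjusted p = 0.323). Spliced and unspliced Xbp1 mRNA were not told apart here. Atf6 had signals of 7.15, 6.51 and 7.58 in activated Treg, against 6.54, 7.08 and 4.82 in resting Treg. Resting replicate 3 stood far below the others, and the difference of 0.94 ± 0.54 had an adjusted p of 0.597. The other 2 membrane-bound factors of the list, Atf6b and Creb3, differed by 0.05 ± 0.23 and -0.08 ± 0.14.

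None of the 10 chaperones and co-chaperones passed, and their median difference was -0.01 (0.09 with quantile and 0.11 with 75th percentile scaling). Hspa5, the usual index gene of the response, had signals of 11.19, 11.15 and 11.64 in activated Treg and 11.14, 11.33 and 11.27 in resting Treg. The groups overlapped, and the difference of 0.08 ± 0.17 (95% interval -0.31 to 0.47) had an adjusted p of 0.916. Hsp90b1 had signals of 10.11, 10.09 and 11.38 in activated Treg, against 9.82, 10.73 and 11.17 in resting Treg. Its low values were the 3 arrays with a high Actb value, and the difference was -0.05 ± 0.42 (adjusted p = 0.983). The second probe set of Hsp90b1 gave 1.37 ± 0.51 (adjusted p = 0.419 over all probe sets), so the probe sets of this gene disagreed. Sdf2l1, a soluble ER protein that works with BiP and its co-chaperone Dnajb11, had signals of 5.67, 5.35 and 5.53 in activated Treg, against 5.19, 5.31 and 5.23 in resting Treg. Its groups did not overlap, and the difference of 0.27 ± 0.21 did not pass (adjusted p = 0.714). All 6 signals were low, under the mean of 6.01 over all probe sets of an array. Of the lectin chaperones, Calr averaged 10.63 ± 0.41 in activated Treg and 10.24 ± 0.53 in resting Treg (SD, n = 3 each), a difference of 0.40 ± 0.30 (adjusted p = 0.708), and Canx differed by -0.10 ± 0.28.

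The disulfide enzymes, which form and rearrange the bonds between cysteines, had a median difference of -0.11 with 0 of 6 past the test, and of 0.01 with quantile scaling. In ER-associated degradation, Derl3, a derlin of the export complex, had signals of 6.04, 6.38 and 6.04 in activated Treg, against 5.41, 5.25 and 5.66 in resting Treg. Every activated array lay above every resting array, by 0.71 ± 0.17, which did not pass (adjusted p = 0.122). These are low signals, around the mean of 6.01 over all probe sets of an array. Within the high Actb class the activated minus resting difference of Derl3 was 0.80, and within the low class 0.58, each with 1 group at a single array. Sel1l, the adaptor of the ubiquitin ligase complex, also showed no overlap, with signals of 9.49, 9.45 and 9.12 in activated Treg and 10.07, 9.56 and 9.51 in resting Treg. Its difference was -0.36 ± 0.19 (adjusted p = 0.56). Herpud1 had signals of 7.40, 7.92 and 9.35 in activated Treg, against 7.96, 9.02 and 9.72 in resting Treg. Its 3 lowest values were the arrays with a high Actb value, and the difference was -0.68 ± 0.55 (adjusted p = 0.735).

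Genes of entry into the ER lay above 0 in all 4 cases, under the other scalings too, with a median of 0.14 and 0 of 4 past the test. Ssr1, a subunit of the translocon-associated protein complex, had signals of 11.11, 10.91 and 11.21 in activated Treg, against 10.62, 10.79 and 10.50 in resting Treg. The groups did not overlap (0.44 ± 0.15, adjusted p = 0.29). Sec11c, a catalytic subunit of the signal peptidase that trims proteins entering the ER, differed by 0.09 ± 0.23. Wfs1, a membrane protein that affects ER calcium, differed by -0.11 ± 0.19.

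**Figure D2:**
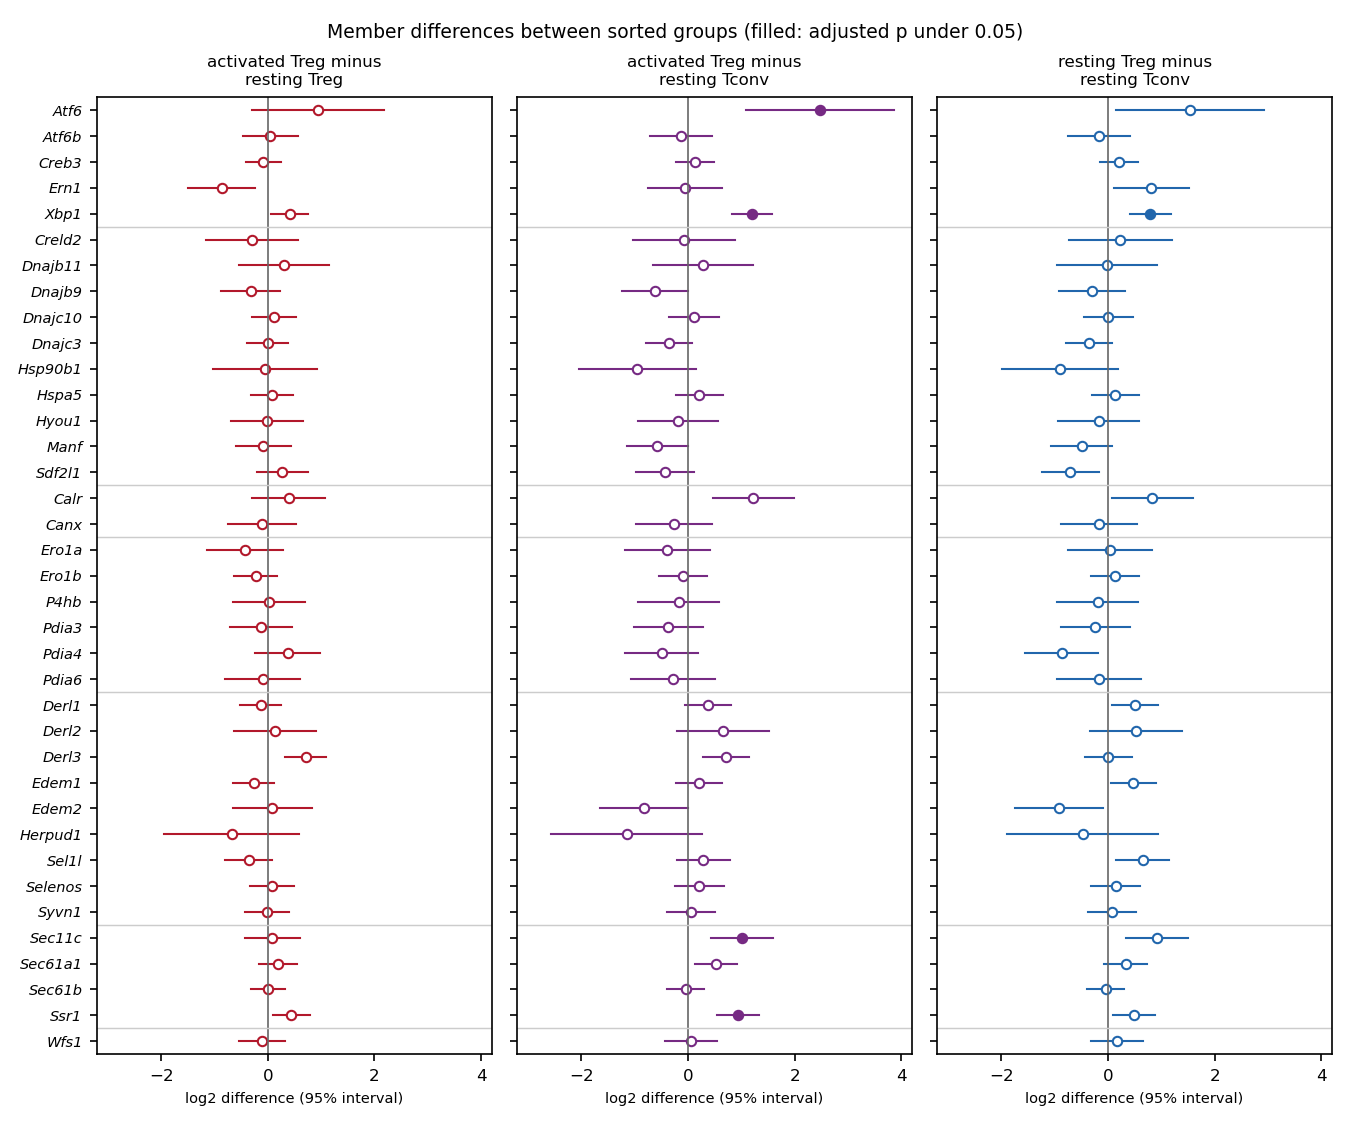
Log2 difference of each of the 37 members with its 95% interval in the 3 comparisons of sorted groups, ordered by role. Filled points passed an adjusted p under 0.05, which none did for activated minus resting Treg, 4 did for activated Treg minus resting Tconv and 1 did for resting Treg minus resting Tconv.

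Other genes of the same pathways, from lists assembled alongside the members were also compared between activated and resting Treg. Of 25 other ER folding genes 0 passed, with a median of -0.04 (0.03 with quantile and 0.07 with 75th percentile scaling), and of 31 further genes of ER entry, glycosylation and export 0 passed, with a median of 0.08. Of 12 genes of the PERK and ATF4 arm 1 passed: Trib3, a pseudokinase induced by ATF4, was lower in activated than in resting Treg (-1.92 ± 0.19, adjusted p = 0.00769). Of 19 cytosolic and mitochondrial chaperones 0 passed.

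Activated Treg and resting Tconv were set against each other as the groups farthest apart in this experiment. Xbp1, Ssr1, Atf6 and Sec11c were higher in activated Treg, and no member was lower. These 4 of 37 members are 10.8%, close to the 9.70% of all genes that passed in either direction. Without adjustment 10 of 37 had a p under 0.05 (27.0%, against 21.6% of all genes), and in 14 the groups did not overlap (37.8%, against 41.1%). Among genes with a mean log2 signal of at least 5, fitted alone, 3378 of 11234 had a p under 0.05. Of the 14, 10 were higher in activated Treg and 4 lower, where 21.4% and 19.7% of all genes lay apart in those directions. The median difference was -0.04 for members and 0.02 for all genes.

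Xbp1 had signals of 11.47, 11.82 and 11.69 in activated Treg, against 10.46 and 10.45 in resting Tconv. All Treg arrays lay above both Tconv arrays, and the difference of 1.2 ± 0.17, a 2.30-fold higher signal, had an adjusted p of 0.0033. Of its 4 probe sets 3 passed in this comparison, and the fourth gave 0.46 ± 0.36. Without Tconv replicate 1 the Xbp1 difference was 1.2 and just missed the threshold (adjusted p = 0.0546). Atf6 had signals of 7.15, 6.51 and 7.58 in activated Treg and 4.76 and 4.45 in resting Tconv. The groups were far apart, with a difference of 2.48 ± 0.60 and an adjusted p of 0.0382. The other probe sets of Atf6 gave 0.81 ± 0.36 and 0.96 ± 0.25, and with adjustment over all probe sets none of the 3 passed (adjusted p = 0.0544 for the brightest). With the Actb class as a block the Atf6 difference was 2.53 and did not pass (adjusted p = 0.087), and the call was also lost when any 1 array of either group was left out, with differences of 2.23 to 2.76. Ern1 averaged 7.35 ± 0.27 in activated Treg (SD, n = 3) and 7.40 ± 0.23 in resting Tconv (SD, n = 2), a difference of -0.05 ± 0.30.

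In ER entry, Ssr1 had signals of 11.11, 10.91 and 11.21 in activated Treg, against 10.06 and 10.23 in resting Tconv. The groups did not overlap (0.93 ± 0.17, adjusted p = 0.0116). Its other 3 probe sets gave 0.83, -0.06 and -0.08, and the mean over all probe sets of Ssr1 gave 0.41 (adjusted p = 0.164). The Ssr1 call was also lost with the arrays of low Actb value alone (1.07, adjusted p = 0.0671) and without Tconv replicate 1 (0.85, adjusted p = 0.158) or 2 (1.02, adjusted p = 0.0819). Sec11c had signals of 11.54, 11.10 and 11.87 in activated Treg, against 10.42 and 10.56 in resting Tconv. Every Treg array was above both Tconv arrays, by 1.02 ± 0.25 (adjusted p = 0.0412), and the second probe set gave 1.83 ± 0.26 (adjusted p = 0.00613 over all probe sets). The Sec11c call was lost without activated replicate 1 or 3, resting Treg replicate 2 or either Tconv array, with differences of 0.83 to 1.09 and adjusted p of 0.0639 to 0.3. Sec61a1, the pore of the channel, differed by 0.53 ± 0.17 (adjusted p = 0.112) and Sec61b by -0.04 ± 0.15.

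Calr stood just outside the threshold, with signals of 10.60, 10.24 and 11.06 in activated Treg and 9.35 and 9.46 in resting Tconv. Its groups did not overlap (1.23 ± 0.33, adjusted p = 0.0571). Derl3 was as close, at 0.72 ± 0.19 (adjusted p = 0.0501). Chaperones leaned the other way in sign: 7 of 10 chaperones and co-chaperones and 6 of 6 disulfide enzymes had negative differences, against 47.9% of all genes. Their medians were -0.27 and -0.32, with the same counts of negative signs under the other scalings, and 0 of these 16 passed. The only activated array with a low Actb value was replicate 3. There Pdia3, Pdia6, P4hb, Ero1a and Ero1b had signals of 9.44, 10.10, 11.71, 9.53 and 8.79. Each lay above its Tconv mean (9.2, 9.64, 11.29, 9.39 and 8.75), whereas Pdia4 lay below its own. Of the chaperones and co-chaperones, Hsp90b1, Sdf2l1, Dnajb9, Dnajc3, Hyou1 and Manf lay below their Tconv means in that array. Hsp90b1 had signals of 10.11, 10.09 and 11.38 in activated Treg, against 11.41 and 11.54 in resting Tconv. Activated replicate 3, the one with a low Actb value, lay next to Tconv, and the difference was -0.95 ± 0.48 (adjusted p = 0.309). Its second probe set gave 1.19 ± 0.57, the opposite sign. Herpud1 had signals of 7.40, 7.92 and 9.35 in activated Treg and 9.40 and 9.34 in resting Tconv (-1.15 ± 0.62, adjusted p = 0.348). The same replicate reached the Tconv level. Hspa5 differed by 0.22 ± 0.19 (adjusted p = 0.62) and Sdf2l1, at 6.33 and 5.56 in the Tconv arrays, by -0.43 ± 0.23 (adjusted p = 0.354).

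**Figure D3:**
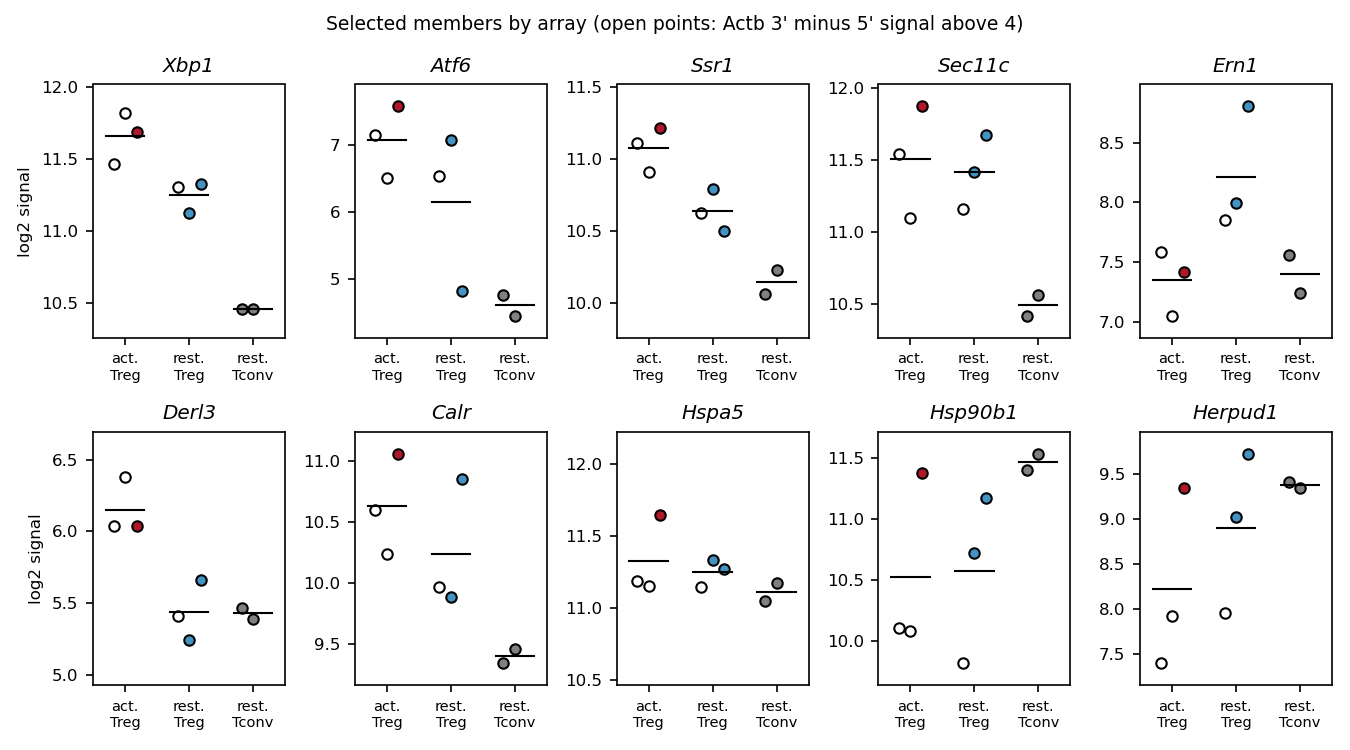
Log2 signal of 10 members in each sorted T cell array, with horizontal lines at the group means. Open points are the 3 Treg arrays with an Actb 3′ minus 5′ signal above 4. Xbp1, Ssr1, Sec11c and Calr are lowest in both Tconv arrays, whereas Hsp90b1 and Herpud1 separate open from filled Treg points.

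Markers of other cells differed between the same groups. The mean of 11 measured B and plasma cell markers lay between 5.76 and 6.40 in activated Treg, between 5.90 and 6.56 in resting Treg and between 5.25 and 5.40 in resting Tconv. Cd79b and Ighm passed against Tconv in both Treg groups and Cd79a in resting Treg, that is 2 of 11 and 3 of 11 markers, all higher in Treg. The Ighm probe set was bright in every group, at 12.82 to 12.95 in Tconv and 13.54 to 13.73 in activated Treg. Cd79a and Cd79b lay at 4.37 to 4.51 and 4.10 to 4.31 in the same Tconv, so the Ighm signal did not follow theirs. The plasma cell gene Jchain averaged 5.22 in activated Treg, 4.84 in resting Treg and 4.27 in resting Tconv, and Sdc1 5.02, 5.49 and 4.90 in the same groups. Mzb1 averaged 6.24, 6.55 and 5.53. None of these plasma cell genes passed. Still, all 11 B and plasma cell markers were above 0 against Tconv in both Treg groups. Their median differences were 0.51 in activated and 0.73 in resting Treg, where 52.1% and 51.0% of all genes were above 0. The mean of 16 myeloid markers lay between 5.53 and 7.12 in activated Treg, between 5.30 and 5.92 in resting Treg and between 5.33 and 5.39 in resting Tconv. Klrd1, 1 of 7 markers of CD8 and NK cells, stood apart from Tconv by -6.69 ± 0.43 in activated Treg and by -4.73 ± 0.43 in resting Treg, and 2 of the 7 passed in activated and 1 in resting Treg. Of the myeloid markers, Lyz1 was higher and Fcgr3 lower in activated Treg than in Tconv, and Fcgr3 was lower in resting Treg. The 9 marker genes of dendritic cells and MHC class II had a mean that lay between 5.78 and 6.54 in activated Treg, between 5.75 and 7.03 in resting Treg and between 5.18 and 5.21 in resting Tconv. Of these 9, 8 were above 0 and 0 passed in either Treg group against Tconv, with median differences of 0.51 in activated and 1.39 in resting Treg. The part of these other cell types in the Xbp1, Ssr1, Atf6 and Sec11c differences was not tested.

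Resting Treg and resting Tconv were compared to ask what sets the sorted groups apart without stimulation. The groups differed in CD45RB level as well as in lineage. Xbp1 alone of the 37 members passed, higher in resting Treg (2.70% of members, against 5.54% of all genes). Its signals were 11.31, 11.12 and 11.32 in resting Treg, against 10.46 and 10.45 in resting Tconv. The groups did not overlap, and the difference of 0.80 ± 0.17 had an adjusted p of 0.0312. Of its other probe sets, 1 passed at 1.14 ± 0.22, and the remaining ones differed by 0.65 ± 0.22 and 0.28 ± 0.36. The call was lost when any 1 of the resting arrays was left out, with differences of 0.76 to 0.86 and adjusted p of 0.0509 to 0.271. With the arrays of low Actb value alone Xbp1 missed the threshold (0.77, adjusted p = 0.0569) and Sec11c passed in its place (1.06, adjusted p = 0.0407).

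Without adjustment 12 of 37 members (32.4%) had a p under 0.05 between resting Treg and resting Tconv, against 17.9% of all genes, and 19 (51.4%) had no overlap, against 42.0%. Among genes with a mean log2 signal of at least 5, fitted alone, 2678 of 11234 had a p under 0.05. Of the 19, 12 were higher in resting Treg and 7 lower, where 21.6% and 20.4% of all genes lay apart in those directions. The sensors leaned upward, with 4 of 5 above 0 under each scaling. Atf6 had signals of 6.54, 7.08 and 4.82 in resting Treg, against 4.76 and 4.45 in resting Tconv, a difference of 1.54 ± 0.60 (adjusted p = 0.224). Without resting replicate 3, the low one, the difference was 2.21 and passed (adjusted p = 0.0121). Ern1 had signals of 7.85, 7.99 and 8.80 in resting Treg, against 7.56 and 7.24 in resting Tconv. Its groups did not overlap (0.81 ± 0.30, adjusted p = 0.2).

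Sec11c had signals of 11.16, 11.42 and 11.67 in resting Treg, against 10.42 and 10.56 in resting Tconv. It missed the threshold at 0.93 ± 0.25 (adjusted p = 0.0788) with its brightest probe set and passed with the second, at 1.56 ± 0.26 (adjusted p = 0.018 over all probe sets). Ssr1 differed by 0.49 ± 0.17 (adjusted p = 0.169) and Sdf2l1 by -0.70 ± 0.23 (adjusted p = 0.148), with no overlap in either. Of the degradation genes, 7 of 9 lay above 0 (6 of 9 with quantile or 75th percentile scaling), among them Sel1l (0.65 ± 0.22, adjusted p = 0.15) and Derl1 (0.51 ± 0.19, adjusted p = 0.195). Edem2, which helps select misfolded glycoproteins, lay below 0, with signals of 7.11, 7.19 and 7.44 in resting Treg and 8.37 and 7.94 in resting Tconv. Its groups did not overlap (-0.91 ± 0.36, adjusted p = 0.226). Pdia4, a disulfide isomerase, behaved alike, with signals of 6.17, 5.72 and 5.84 in resting Treg, against 7.12 and 6.43 in resting Tconv. The difference of -0.86 ± 0.30 had an adjusted p of 0.162, and with the Actb class as a block it was -1.05 and passed (adjusted p = 0.0318). Calr was higher by 0.83 ± 0.33 (adjusted p = 0.234), Hsp90b1 lower by -0.90 ± 0.48 (adjusted p = 0.388) and Hspa5 differed by 0.14 ± 0.19 (adjusted p = 0.799), none past the test.

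Among the other pathway genes, Creb3l2, a membrane-bound relative of ATF6, and Vcp, the ATPase that pulls proteins out of the ER membrane, were higher in resting Treg than in Tconv (1.47 ± 0.25, adjusted p = 0.0127, and 1.00 ± 0.17, adjusted p = 0.0133), 2 of 25 other folding genes. In activated Treg, 3 of 25 passed against Tconv, with Dnajc1 beside these genes (1.51 ± 0.26, adjusted p = 0.00916). Over all genes 5.54% passed against Tconv in resting Treg and 9.70% in activated Treg. Of 31 further genes of ER entry, glycosylation and export, Rpn1 was higher in activated Treg (0.67 ± 0.17, adjusted p = 0.0472) and Sec62 in resting Treg (0.68 ± 0.15, adjusted p = 0.0387), 1 of 31 in each comparison. Trib3 was the 1 of 12 genes of the PERK and ATF4 arm to pass in each Treg comparison with Tconv, lower by -3.21 ± 0.22 in activated Treg and by -1.28 ± 0.22 in resting Treg. These 3 comparisons share arrays, so their results are not independent.

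The ligand experiment asked whether Sema4a-Ig acts on Treg and whether that needs Nrp1. Its deposited values had the same mean in all 16 pairs at every probe set, within 6e-05, so only the Sema4a-Ig minus IgG1 difference of each pair carries information and levels cannot be compared between genotypes. For the same reason the spread of the Sema4a-Ig levels mirrors that of the IgG1 levels, and loss of Nrp1 cannot be read from these arrays. Pairs 1 to 3 of both genotypes varied more over all genes than pairs 4 to 8. The SD of the pair difference over all genes was 0.337 to 0.466 in KO pairs 1 to 3 and 0.342 to 0.498 in WT pairs 1 to 3, against 0.209 to 0.321 and 0.246 to 0.303 in pairs 4 to 8 of KO and WT. The brightest probe set was another one than in the sorted experiment for 8 members (Atf6, Calr, Derl1, Dnajc10, Dnajc3, Edem1, Ero1a and Pdia3). Of 23 nonspecific control probe sets the brightest averaged 3.95, and Derl3 and Wfs1, with mean signals of 3.77 and 3.71, lay under it, so their differences here carry little weight. Ern1 and Pdia3 were also weak here, with mean signals of 4.83 and 4.80, under the low-signal limit of 5. The probe set used for Foxp3 lay under the brightest control on these arrays, between 3.27 and 3.82, although the cells were sorted by Foxp3-YFP. The mean of the 7 Treg markers measured lay between 9.07 and 9.32 over the 4 groups.

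In NRP KO Treg no member passed between Sema4a-Ig and IgG1 (0 of 37), and neither did any other gene (0.00% of all genes by limma). Without adjustment 2 of 37 members (5.41%) had a p under 0.05, against 10.5% of all genes, and in 0 of 37 did all 8 pairs move the same way, against 2.64% of all genes (0.988% higher and 1.66% lower with Sema4a-Ig). Of the 37 differences 30 were negative, with a median of -0.09, against 9399 of 17097 negative and a median of -0.02 over all genes. The median of the 7842 genes with a mean log2 signal of at least 5 was -0.05. With 75th percentile centring 24 members were negative (also 24 with quantile scaling), with a median of -0.03 for members and 0.04 for all genes. The members under 0.05 were Creld2 and Manf, both ER proteins that are secreted under stress. Creld2 pair differences ran from -0.91 to 0.04 with a median of -0.27, and 6 of 8 pairs were lower with Sema4a-Ig (-0.32 ± 0.10, adjusted p = 0.378). Manf pair differences ran from -0.85 to 0.14 with a median of -0.06 (-0.20 ± 0.09, adjusted p = 0.478). Pairs 2 and 3 were the lowest of both genes.

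None of the sensors passed in KO Treg. Xbp1 pair differences ran from -0.42 to 0.63 (-0.01 ± 0.12, adjusted p = 0.984) and those of Ern1 from -0.40 to 0.40 (-0.11 ± 0.09, adjusted p = 0.648). Atf6 had the lowest mean of the 37, at -0.32 ± 0.17 (adjusted p = 0.496), carried by pairs 1 and 3, at -1.71 and -1.18, while the other 6 lay between -0.25 and 0.49. Without pairs 1 to 3 its mean was 0.08. Hspa5 (-0.08 ± 0.07), Hsp90b1 (-0.06 ± 0.07) and Calr (-0.09 ± 0.07) did not pass. Sdf2l1 was lower in 6 of 8 KO pairs, with -0.43, -0.33 and -0.61 in pairs 1 to 3 and values between -0.24 and 0.18 in the other 5 (-0.19 ± 0.11, adjusted p = 0.541). Derl3 had a mean of 0.24 ± 0.13 (adjusted p = 0.531).

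In WT Treg, Sdf2l1 was lower with Sema4a-Ig than with IgG1 and was the only member to pass. It is 1 of 37 members (2.70%), against 5.79% of all genes, so the module held no excess of passing genes. The signal of Sdf2l1 had its lowest, median and highest values at 7.56, 7.91 and 8.03 with Sema4a-Ig, against 8.07, 8.19 and 8.55 with IgG1. As all pairs have the same mean, the gap between these levels only restates the signs of the pair differences. All 8 pairs were lower with Sema4a-Ig, by -0.45 ± 0.11 (0.733-fold, adjusted p = 0.0197). Pairs 1 to 3 gave -0.99, -0.87 and -0.82, and pairs 4 to 8 gave -0.13, -0.04, -0.19, -0.33 and -0.23. Every one of the first 3 pairs was therefore farther from 0 than any of the other 5. Over pairs 4 to 8 alone, a subset chosen after the spread was seen, the mean was -0.18 and did not pass (adjusted p = 0.212). Leaving out WT pair 1, 2 or 3 also ended the call, with adjusted p of 0.0652, 0.056 and 0.0828.

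Without adjustment 13 of 37 members (35.1%) had a p under 0.05 in WT Treg, against 21.1% of all genes. Among genes with a mean log2 signal of at least 5, fitted alone, 2905 of 7842 had one. The members include Ern1, Pdia3, Derl3 and Wfs1, which lay under that limit, so their share is not over a like set. The median difference of the genes at or above the limit was -0.06, and most members belong to those genes. In 7 members (18.9%, against 7.39% of all genes) all 8 pairs moved the same way. Of these, 6 were lower with Sema4a-Ig, namely Sdf2l1, Hyou1, Calr, Hspa5, Ero1a and Atf6, and Sec11c was higher, where 4.36% and 3.03% of all genes did so in those directions. The median of the 37 differences was -0.07, against -0.01 over all genes, and 24 were negative (64.9%, against 53.9%). With 75th percentile centring 19 were negative (22 with quantile scaling), with a median of -0.00 for members and 0.05 for all genes. Sizes were small: none of the members but Sdf2l1 differed by more than 0.33.

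Hyou1, a large relative of HSP70 that recycles BiP, had pair differences from -0.98 to -0.03 with a median of -0.19. Its mean of -0.29 ± 0.09 missed the threshold (adjusted p = 0.0636), and pair 1 was the extreme value. Calr pair differences ran from -0.55 to -0.04 with a median of -0.20 (-0.23 ± 0.07, adjusted p = 0.0698). Both passed when genes of low signal were left out (adjusted p = 0.0278 and 0.0236). Hspa5 pair differences ran from -0.47 to -0.01 with a median of -0.07 (-0.16 ± 0.07, adjusted p = 0.178). Pairs 1 to 3 were again the lowest 3. Ero1a, the oxidase that recharges the disulfide isomerases, ran from -1.18 in pair 3 to -0.01 (-0.33 ± 0.12, adjusted p = 0.119). Creld2 and Pdia6 were each lower in 7 of 8 pairs (-0.23 ± 0.10 and -0.24 ± 0.09, adjusted p = 0.192 and 0.12). Hsp90b1, with a mean of -0.04 ± 0.07, was lower in 5 of 8 pairs.

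None of the sensors passed in WT Treg. Xbp1 was higher in 7 of 8 pairs and at -0.86 in pair 1, with a mean of 0.05 ± 0.12 (adjusted p = 0.87). Ern1, of low signal on these arrays, was also higher in 7 of 8 pairs (0.11 ± 0.09), without passing. Atf6 was lower in 8 of 8 pairs, between -0.65 and -0.06, with a mean of -0.23 ± 0.17 (adjusted p = 0.486). In ER entry, Sec11c was higher in 8 of 8 pairs, between 0.02 and 0.43 (0.18 ± 0.07, adjusted p = 0.119), whereas Ssr1 was lower in 6 of 8 (-0.19 ± 0.08, adjusted p = 0.186). Of the 9 degradation genes 4 were above 0 and 5 below, with a median of -0.02 and 0 with an unadjusted p under 0.05.

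**Figure D4:**
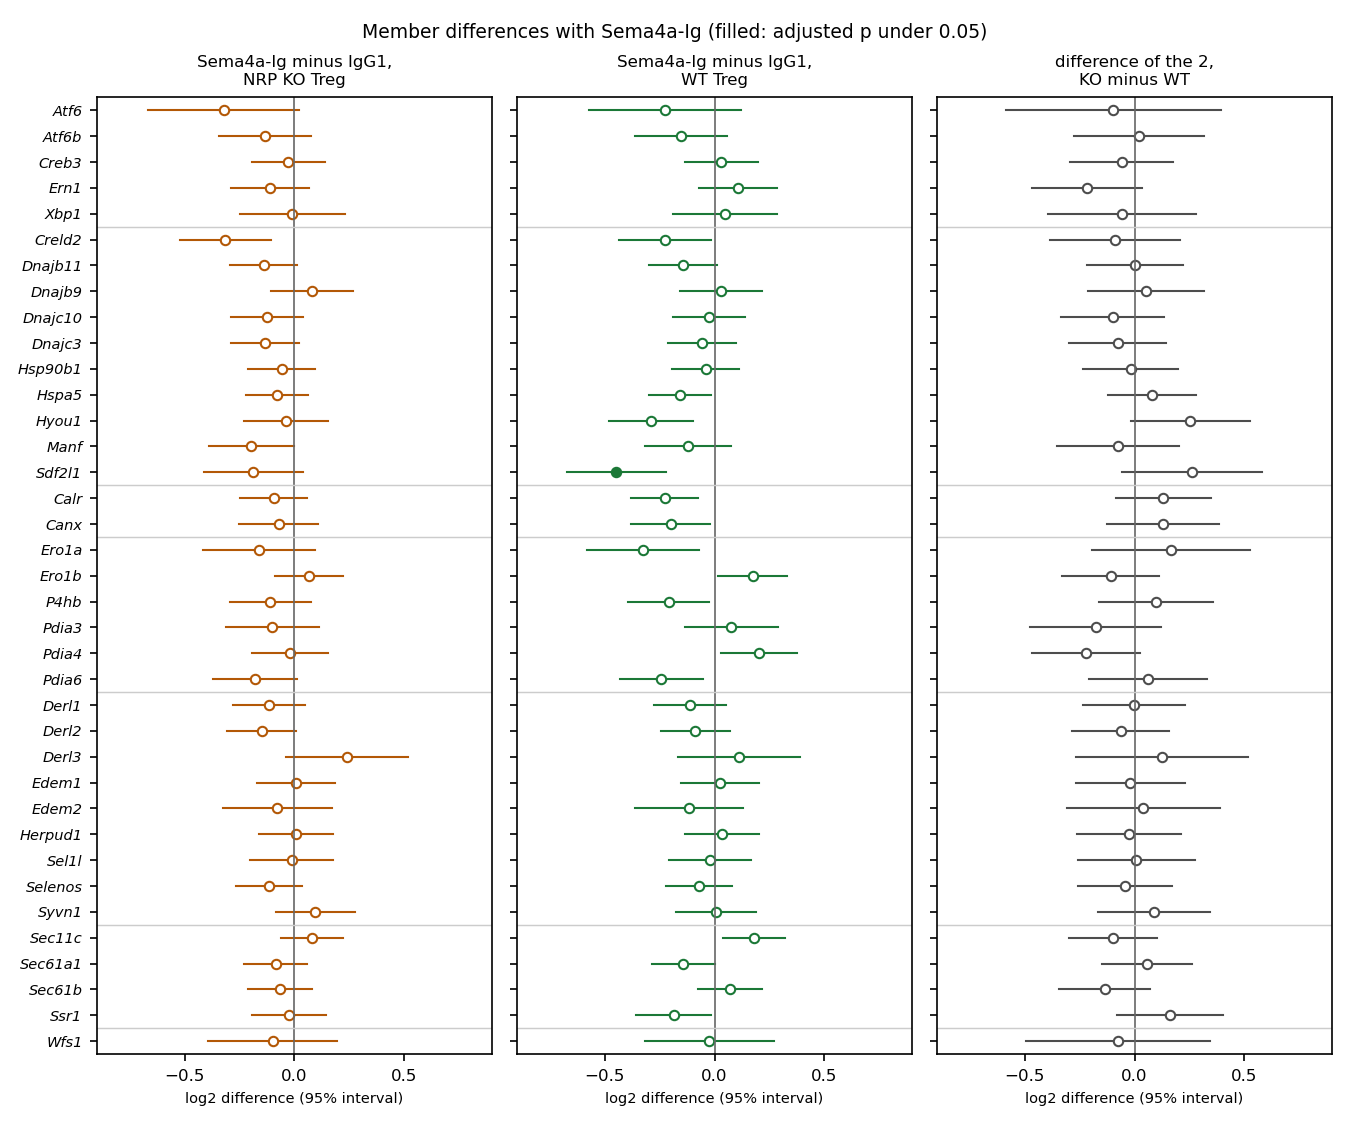
Log2 difference between Sema4a-Ig and IgG1 for each of the 37 members with its 95% interval, in NRP KO Treg (left), in WT Treg (middle) and as the KO minus WT difference of the effects (right). Sdf2l1 in WT Treg, at -0.45, is the only filled point, that is the only one with an adjusted p under 0.05.

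An effect of Sema4a-Ig was not shown to depend on the genotype for any member. The KO minus WT difference of the effects passed in 0 of 37 members and in 0.00% of all genes by limma, and without adjustment in 0 of 37 members and 5.94% of all genes. It was 0.26 ± 0.15 for Sdf2l1 (adjusted p = 0.857, 95% interval -0.06 to 0.58) and 0.25 ± 0.13 for Hyou1 (adjusted p = 0.851). Pdia4 and Ern1 had the lowest values, -0.22 ± 0.12 and -0.22 ± 0.12 (adjusted p = 0.854 for both), and Pdia3 stood at -0.18 ± 0.14. Of these, Ern1 and Pdia3 were of low signal on these arrays. Calr (0.13 ± 0.10), Hspa5 (0.08 ± 0.10), Hsp90b1 (-0.02 ± 0.10), Xbp1 (-0.06 ± 0.16) and Atf6 (-0.10 ± 0.24) lay closer to 0. Since the intervals of single members had a median half-width of 0.25, effects of this size in 1 genotype could not be told from effects shared by both. Across the 37 members the KO and WT effects, which share no array, had a Pearson r of 0.63 (0.51 across all 17097 genes), and 31 members had the same sign in both (64.8% of all genes), 24 of them negative. This correlation is across genes, which are not independent replicates and which share the array type and the pairing.

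**Figure D5:**
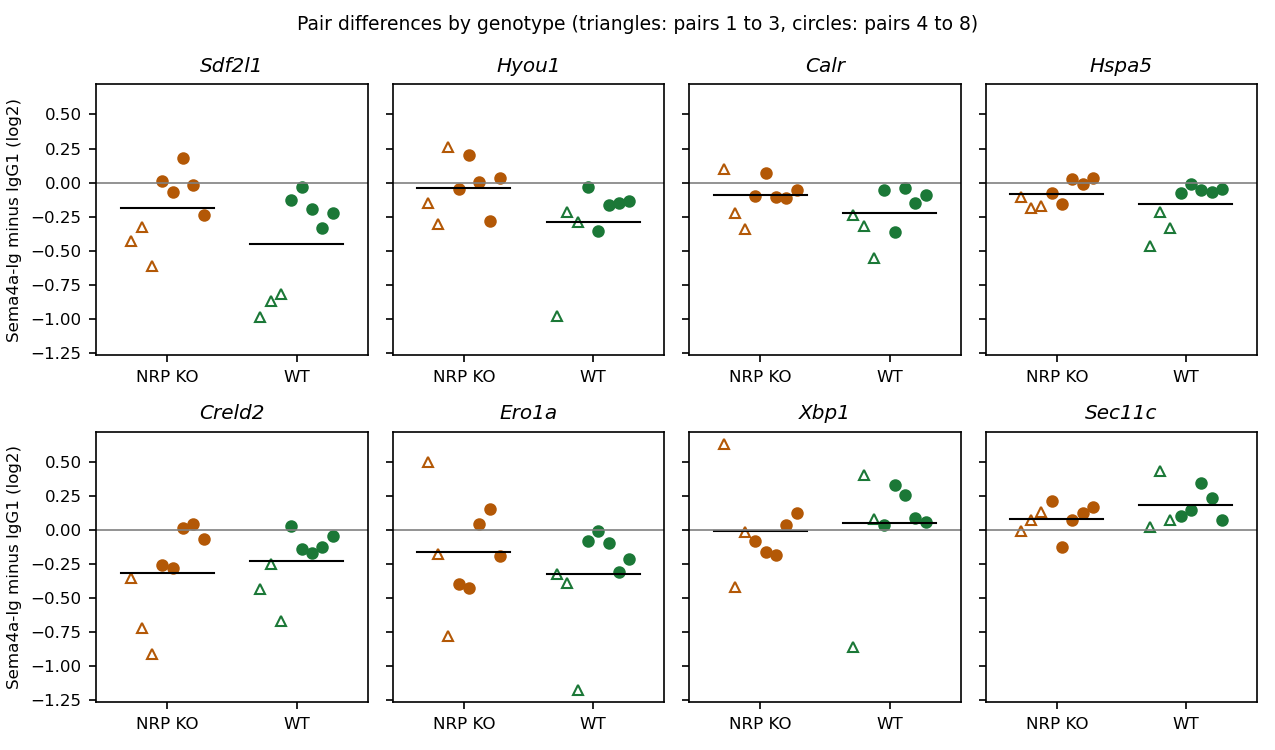
Sema4a-Ig minus IgG1 difference of each pair (log2) for 8 members, in NRP KO Treg (left of each panel) and WT Treg (right), with horizontal lines at the means. Triangles are pairs 1 to 3 and circles pairs 4 to 8. In WT Treg the triangles of Sdf2l1 lie between -0.99 and -0.82, below all circles.

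Members with and without an ER stress element were also set side by side, with no test. In WT Treg the 12 members with either form of the element had a median Sema4a-Ig difference of -0.10 and the 19 others with a promoter one of -0.02. In KO Treg the order was the other way round, at -0.08 and -0.10. Between activated and resting Treg the medians were -0.03 and 0.02. Sdf2l1, Xbp1 and Ssr1, the passing members with a promoter, hold none of the 3 motifs in this window.

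Other folding genes passed in WT Treg in the same direction as Sdf2l1. Over all genes 5.79% passed and 53.9% were negative in this comparison. Among genes with a mean log2 signal of at least 5, fitted alone, 1688 of 7842 passed, 991 of them as lower. Over pairs 4 to 8 alone 50 of all genes passed as lower. Of 24 other ER folding genes 3 were lower with Sema4a-Ig: Mogs and Prkcsh, which trim glucose from new glycans (-0.38 ± 0.09, adjusted p = 0.015, and -0.29 ± 0.08, adjusted p = 0.0429), and Erp29 (-0.29 ± 0.08, adjusted p = 0.0434). Of 29 further genes of ER entry, glycosylation and export 0 passed, although 23 were negative (17 with 75th percentile centring). In the PERK and ATF4 arm 1 of 12 passed, the stress factor gene Atf3 (-0.78 ± 0.17, adjusted p = 0.0105). Outside the ER, 3 of 17 cytosolic and mitochondrial chaperones were lower: Stip1, a co-chaperone of HSP90 (-0.40 ± 0.10, adjusted p = 0.0235), Hspa9 (-0.38 ± 0.11, adjusted p = 0.047) and Trap1 (-0.28 ± 0.07, adjusted p = 0.0325). That list had a median of -0.19, with 16 of 17 below 0 (14 of 17 with 75th percentile centring). In KO Treg 0 genes of these 4 lists passed, with medians between -0.12 and -0.08.

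Markers of myeloid cells moved with the ligand in WT Treg. The pair differences of the mean of the 16 markers were -0.18 and -0.09 in pairs 4 and 5 and between 0.14 and 0.55 in the others. Of the 16 markers 13 were above 0 (46.1% of all genes), with a median of 0.15, and Lyz2, Ctss and Tyrobp, 3 of 16, passed as higher. Ctss was bright throughout, at 9.78 to 10.11 with IgG1 in WT Treg. In the sorted Tconv it lay at 12.69 to 12.75, where Tyrobp lay at 4.98, so Ctss is a poor marker of myeloid cells here. In KO Treg the pair differences of the mean of the 16 were 0.41 in pair 4 and between -0.22 and 0.05 in the others. There 7 of 16 markers were above 0, with a median of -0.05, and 0 passed. With the pair difference of the mean of the 16 markers as a covariate the Sdf2l1 difference in WT Treg was -0.42 (adjusted p = 0.272), and no gene passed. Of 9 B and plasma cell markers 1, Cd79b, was also higher with Sema4a-Ig in WT Treg (0.35 ± 0.09, adjusted p = 0.0241).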

How the data were processed

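Per the submitters' processing notes, the deposited values were made with RMA and Partek 6.6. They are log2 signals per probe set, normalized between arrays by the authors. Gene names came from GEO's platform annotation, brought up to date by RefSeq gene identifiers (assembly GRCm38.p6), and probe sets with several genes or none were left out. Each gene kept the probe set of the highest mean over its platform's arrays.

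The tests were two-sided, from limma 3.58.1 (lmFit and eBayes) run in R 4.3.3, and p-values were adjusted by Benjamini-Hochberg across every gene measured. For the 8 sorted arrays a mean was fitted for each of 3 groups, which left 5 residual degrees of freedom. The ligand arrays entered as 16 Sema4a-Ig minus IgG1 differences, with a mean per genotype (14 residual degrees of freedom), paired within a genotype by neighbouring codes in the titles. The equality of the pair means at 45141 probe sets bears out this pairing. The fit was tested on simulated data. The number of arrays limits the precision.

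Members and lists were chosen with earlier results of these data known. Values are given for passing members, the 5 with the largest difference per comparison, Xbp1, Ern1, Atf6, Hspa5, Hsp90b1 and Calr, and others were named after their values were seen. Promoter windows are those of all members that hold an ER stress element, since no passing member with a promoter in the table does. Alternatives covered probe sets, low signals (mean log2 under 5), scaling, variance trend, array weights, Actb class (limit 4), myeloid markers, pairing and each array or pair left out.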

Additional observations from a re-analysis of the deposited data

Results flagged for a closer look

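For each of the 37 members and each genotype, the 8 Sema4a-Ig minus IgG1 pair differences were searched for a single extreme pair, one whose gap to its nearest neighbour took up an unusually large share of the whole range. Of 74 sets of 8 pairs 11 held one. For independent values of equal spread, chance would flag about 1 in 20 such sets, which is 3.7 of 74. These pairs differed in spread and all members share the same pairs, so the 11 cannot be judged against that number. Of the 11, 10 were among pairs 1 to 3, the pairs with the larger spread over all genes.

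In KO Treg, pair 3 stood apart for Creb3 (-0.49, others -0.09 to 0.16), Dnajb11 (-0.51, others -0.17 to 0.03) and Herpud1 (-0.52, others -0.08 to 0.30), each lower with Sema4a-Ig. The same pair was high for Derl3 (1.25, others -0.14 to 0.43), a gene near the level of the nonspecific controls on these arrays. KO pair 2 was low for Derl1 (-0.52, others -0.21 to 0.06), and KO pair 4 was low for Pdia3 (-0.86, others -0.23 to 0.31), a gene of low signal on these arrays.

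In WT Treg, pair 1 was low for Xbp1 (-0.86, others 0.04 to 0.40), Hyou1 (-0.98, others -0.36 to -0.03), Canx (-0.88, others -0.35 to 0.04) and Selenos (-0.50, others -0.13 to 0.10). WT pair 3 was low for Ero1a (-1.18, others -0.39 to -0.01).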

How the results depend on the processing

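Of the number of members that passed, activated against resting Treg gave 0 in the reported fit and 1 (Derl3) with array weights. Activated Treg against resting Tconv gave 4, but 16 with array weights, 2 with the arrays of low Actb value, and 0 to 6 with 1 array left out (0 without Tconv replicate 1). Resting Treg against resting Tconv gave 1, but 2 with the mean over probe sets, 0 with 75th percentile centring, 8 with array weights, 3 with the Actb class as a block and 0 to 1 with 1 array left out. Sema4a-Ig in WT Treg gave 1, but 2 with the mean over probe sets, 4 without genes of low signal, 2 with 75th percentile centring, 4 with a variance trend, 0 with the myeloid covariate, 0 over pairs 4 to 8 and 0 to 1 with 1 pair left out. Without the pairing as a block, which takes paired arrays as independent, 15 members passed in WT Treg, 3 in KO Treg and 0 for their difference. KO Treg and the KO minus WT difference gave 0 with every pair left out in turn. The cause of these shifts was not tested.

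Over all genes, 498 passed as higher and 492 as lower with Sema4a-Ig in WT Treg, against 695 and 260 with 75th percentile centring 609 and 431 with quantile scaling, 697 and 991 without genes of low signal and 631 and 817 with a variance trend; resting Treg gave 704 and 304 against Tconv, and 671 and 500 with quantile scaling. Of 1469 values of single members under an alternative 49 turned their sign, none of them of a member that had passed in that comparison. For activated against resting Treg, Hsp90b1 was 0.6623 with the mean over probe sets, 0.034 and 0.0638 with quantile and 75th percentile scaling, 0.3539 with the Actb class as a block, 0.4308 with low Actb arrays and -0.4739 to 0.2514 with 1 array left out. Array weights turned Hspa5 (-0.0772) and Sec11c (-0.191) there, and leaving out 1 array gave -0.0795 to 0.1661 for Hspa5 and -0.0962 to 0.2906 for Sec11c. In activated Treg against Tconv, Ern1 was 0.0085 (75th percentile), 0.1632 (Actb block), 0.0133 (low Actb arrays) and -0.2116 to 0.1093 (1 array left out), and with the mean over probe sets Hspa5 was -0.0304 and Hsp90b1 0.1211. In resting Treg against Tconv the last setting gave -0.1702 for Hspa5. In KO Treg, Xbp1 was 0.0095 (quantile), 0.0475 (75th percentile) and -0.1009 to 0.0486 (1 pair left out), and Ssr1 0.0196, 0.0317 and -0.0692 to 0.0321 under the same settings and 0.005 over pairs 4 to 8, where Atf6 was 0.0815 and Hsp90b1 0.0134. In WT Treg, Ern1 was -0.0005 with the mean over probe sets, Xbp1 -0.0024 to 0.1779 with 1 pair left out, and Hsp90b1 0.0283 (75th percentile), 0.0075 (array weights) and 0.0426 (pairs 4 to 8). For KO minus WT, Xbp1 was -0.1875 to 0.0005 with 1 pair left out, Atf6 0.0657 (array weights), 0.1808 (pairs 4 to 8) and -0.2123 to 0.1018 (1 pair left out), and Hsp90b1 0.0383 (mean over probe sets), 0.0195 (quantile) and -0.0488 to 0.0373 (1 pair left out).

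Derl3 and Wfs1 lay at the level of nonspecific controls in the ligand experiment, so changes in them could not be resolved there.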
